A study of Mus musculus with 6 samples.

Results

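Solute carriers are the membrane proteins that move amino acids, sugars, metals, ions, vitamins and metabolites into cells or between their compartments, and their gene names carry a family number, the letter a and a member number. The genes described here are those whose platform symbol has that form, with at least 1 probe detected on all 3 arrays of DCKO or of WT. A probe counted as detected at a detection p under 0.05 against the negative controls of its array. Each gene is given by its probe with the highest mean signal over the 6 arrays. The array names 327 such genes through 605 probes, and 122 of the genes met the rule, through 162 probes. Of the other 205 genes, 114 were detected on no array and 91 on 1 to 5 arrays. The rule uses the measured values, since a gene enters through the genotype in which it is bright. Of the 122 genes, 80 were detected on all 3 arrays of both genotypes, 19 passed through DCKO alone and 23 through WT alone. Passing through 1 genotype favours genes that are brighter in it, so the direction of these genes is a description and supports nothing.

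Gene expression was compared in head tissue of mouse embryos at E10.5, dissected by laser from the lens placode region, with 3 bead arrays of each genotype. In the DCKO the genes of the histone acetyltransferases CBP and p300 are both deleted, and the embryos were CBP/p300 fl/fl and Pax6-Cre-positive. WT embryos carried the same floxed alleles without Cre by the study's methods, whereas their sample records call the genotype wild type. Both genotypes are of a mixed FVB and 129 background. The Cre is driven by a lens enhancer and promoter of Pax6, so it acts in the head ectoderm that gives rise to lens and cornea and the deletion does not reach the whole embryo. The records name the DCKO tissue surface ectoderm and the WT tissue lens placode. They describe RNA of 3 embryos that was pooled for each genotype and then amplified in triplicate, while the study's methods describe separate replicates. With a shared pool, p-values measure only the technical spread between arrays.

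Arrays correlated at 0.878 to 0.883 within DCKO, at 0.93 to 0.934 within WT and at 0.837 to 0.857 between genotypes over the tested probes. Of the 122 solute carrier genes, 107 to 111 were detected per DCKO array and 109 to 113 per WT array. All 8 tested lens markers were called lower in DCKO, with a summed intensity over the 10 lens markers of 660 to 751 in DCKO and 17815 to 19229 in WT. Of 8 surface ectoderm markers, 2 were called higher in DCKO, Krt8 and Trp63, and 7 were detected on all DCKO arrays, against 5 on all WT arrays. The 8 summed to 8302 to 9603 in DCKO and 8359 to 10044 in WT, and Cdh1 was the member with a negative difference (-0.82, adjusted p 0.126), with no overlap between genotypes. Unlike the Trp63 array values, in situ hybridization in the study showed p63 (Trp63) lost from the DCKO presumptive lens ectoderm. The study found E-cadherin, the protein of Cdh1, unchanged at a later stage. Of the deleted genes, the 3 tested Crebbp probes did not pass, and 1 of 4 tested Ep300 probes was called, at -2.00. Whether these probes lie in the deleted exons is not known here, so they check the genotype only in part.

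Transport in the early lens serves a tissue with no blood vessels of its own, in which glucose enters by facilitative carriers of the Slc2 family, and amino acids by sodium-coupled carriers and by exchangers of the Slc7 family. Several Slc7 exchangers reach the plasma membrane only when bound to a common heavy chain, CD98, encoded by Slc3a2. One of them is xCT, encoded by Slc7a11, which brings in cystine in exchange for glutamate and so feeds the synthesis of glutathione, the thiol that keeps lens proteins reduced. In mouse cells Slc7a11 is known to respond to amino acid shortage through ATF4, at promoter elements of the form TGATGNAA, and to oxidants through NRF2, whose elements contain TGACNNNGC.

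The sequences upstream of this pair of partner genes are shown because both genes were lower in DCKO. They are the 250 bases before a transcript start that RefSeq gives for each gene, which here lies within the gene's annotated span and is not its outermost start, 5′ to 3′ on the gene's strand, taken from its build GRCm38.p6, chr3:50443614-50443863 on the minus strand for Slc7a11 and chr19:8713898-8714147 on the minus strand for Slc3a2. Capitals mark matches to TGATGNAA, read on either strand.
Slc7a11: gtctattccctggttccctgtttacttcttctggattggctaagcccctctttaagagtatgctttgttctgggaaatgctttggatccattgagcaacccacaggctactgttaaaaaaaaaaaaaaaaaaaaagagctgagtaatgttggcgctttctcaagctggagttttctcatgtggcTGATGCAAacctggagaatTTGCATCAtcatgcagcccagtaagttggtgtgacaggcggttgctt
Slc3a2: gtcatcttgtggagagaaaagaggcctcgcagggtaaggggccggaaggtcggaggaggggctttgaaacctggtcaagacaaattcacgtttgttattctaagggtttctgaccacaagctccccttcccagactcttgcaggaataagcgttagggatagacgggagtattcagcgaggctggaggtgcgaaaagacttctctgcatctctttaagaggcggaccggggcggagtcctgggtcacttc
The Slc7a11 window holds TGATGNAA at -66 on the gene's strand and at -47 on the other strand, counted from the start site to the first base of each match, and the matches do not overlap. At least 1 match to TGATGNAA occurred in 3.45% of the 32851 upstream windows of this length in the RefSeq table, and at least 2 matches in 0.0396%, which is 13 windows. Of the 122 solute carrier genes 99 were in the table, with 134 windows, of which 1.49% hold TGATGNAA, from 2 genes. TGACNNNGC occurred in 17.2% of these windows, against 10.2% of all windows, and in neither window printed above. GGGCGG occurred in 64.9% of the windows of these genes, including that of Slc3a2, against 32.7% of all windows, and CACGTG in 12.7% against 6.02%. The full set of windows was not chosen by detection, so these shares do not set solute carriers apart from other detected genes. TGATGNAA was taken from earlier knowledge of Slc7a11, so its presence there was foreseen and its rarity elsewhere is no support. Of the 7 genes called below that have a window, only Slc7a11 held it. These are matches of letters and say nothing of what binds there.

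Over the 122 genes, limma called 6 lower in DCKO and 2 higher, at a Benjamini-Hochberg adjusted p under 0.05 over all 19552 tested probes. That is 6.56% of the genes, against 4.58% of all tested probes and 5.55% of the 9103 genes chosen by the same rule. By direction, 2.81% of tested probes were called lower and 1.77% higher. At an unadjusted p under 0.05, 24 solute carrier genes were lower and 20 higher. No share of all tested probes is given at that threshold, so these counts are a description. The 2 genotypes did not overlap for 24 genes that were lower in DCKO and 24 that were higher, which is 39.3% together, beside 27.4% of tested probes (14.4% lower and 13% higher) and 32.5% of all genes chosen alike. The median log2 difference, DCKO minus WT, was -0.06 over the 122 genes and 0.01 over all tested probes. Among the 80 genes detected in both genotypes, 2 were called lower and 2 higher, which is 5% beside 3.44% of all genes detected on all 6 arrays, with a median difference of -0.06. The genes admitted by DCKO alone had no calls and a median of 0.49. Those admitted by WT alone had 4 calls, all lower, and a median of -1.02. Leaving out any 1 of the 6 arrays gave 0 to 3 genes lower and 1 to 4 higher. Over all tested probes such fits called 170 to 398 lower and 59 to 222 higher, against 549 and 346 with all arrays. The fall in calls is thus not particular to solute carrier genes.

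**Figure D1:**
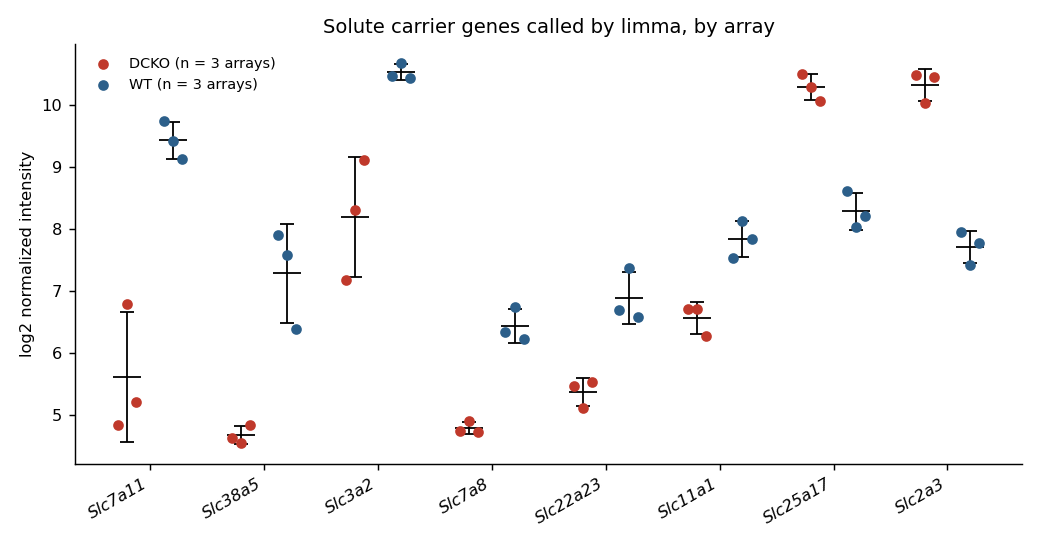
The log2 normalized intensity of the 8 called genes is plotted on each array, with DCKO left of WT for each gene, points for single arrays, and horizontal bars and whiskers for mean and SD of 3 arrays. No gene's DCKO and WT points overlap, and the DCKO points of Slc7a11, from 4.84 to 6.80, and of Slc3a2, from 7.18 to 9.11, are the most spread.

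Carriers of amino acids held 4 of the 6 genes called lower, and 3 of these, Slc7a11, Slc38a5 and Slc7a8, passed the detection rule through WT alone, where they are bright, so the share of this class is a description. Of the 19 genes of this class, 4 were called lower, 0 higher and 15 did not pass. The class median was -0.58, beside 0.01 for all tested probes and 0.01 for all genes chosen by the same rule. The shares of all tested probes, 2.81% called lower and 1.77% called higher, apply beside the counts of this and every class below. Of the called genes, 3 belong to the same kind of complex: the heavy chain Slc3a2 and its light chains Slc7a11 and Slc7a8.

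Slc7a11 (chr3:50364936-50499087, the span of the gene on GRCm38.p6, as for the genes below) measured 4.84, 6.80 and 5.21 on the log2 scale in DCKO, against 9.74, 9.43 and 9.14 in WT. The highest DCKO array stayed below the lowest WT array, and only 1 of the 3 DCKO arrays detected the probe. The difference was -3.82 ± 0.53 (SE, n = 3 arrays per genotype), with an adjusted p of 0.0150 in limma. It is not given as a fold, since most DCKO values lie below detection, and it ranged from -4.44 to -1.97 over the processing alternatives. The gene's other tested probes were also called lower. One measured 5.44, 5.08 and 5.23 in DCKO against 6.18, 6.91 and 6.72 in WT, a difference of -1.35 (adjusted p 0.0459). The other was undetected on every DCKO array, at 4.48, 4.54 and 4.63, against 7.15, 5.74 and 6.79 in WT (-2.01, adjusted p 0.0415). All 3 tested probes of Slc7a11, of 5 on the array, were lower in DCKO. Testing required detection on 3 arrays, which here came mostly from WT, so their shared direction is a description. Because their DCKO values lie mostly below detection, the sizes cannot be set against each other. In dissected tissue such as this, fewer cells of a type and less RNA per cell cannot be told apart. The call was lost when any 1 WT array was left out, at adjusted p-values up to 0.0697.

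Slc3a2 (chr19:8706882-8723369), the CD98 heavy chain, measured 7.18, 8.31 and 9.11 in DCKO, against 10.47, 10.68 and 10.44 in WT. It was detected on all 6 arrays, and the DCKO arrays spread over a far wider range than the WT arrays. The difference of -2.33 ± 0.48 corresponds to 5.03-fold lower, and its adjusted p of 0.0497 lies just under the threshold. The call did not hold without DCKO array 1 or 2, or without any 1 WT array, where the adjusted p reached 0.157.

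Slc7a8 (chr14:54722215-54781886), the light chain LAT2, which exchanges neutral amino acids, measured 4.74, 4.90 and 4.73 in DCKO, against 6.35, 6.75 and 6.23 in WT. It was detected on every WT array and on no DCKO array, so the change is given as at least 2.02-fold lower in DCKO (log2 difference -1.65, adjusted p 0.0165). This bound, like the others below, sets the WT mean against the lowest signal that counts as detected on each DCKO array, or the probe's own value where that is higher. It takes the means as measured and does not allow for the spread between arrays, so the true change could be smaller. Without any 1 WT array the adjusted p was 0.0631 to 0.0697. Another light chain, Slc7a6 or y+LAT2, was not called. Its probe measured 6.63, 7.67 and 5.78 in DCKO, against 8.40, 7.81 and 8.07 in WT (-1.40, adjusted p 0.171), with every DCKO array below every WT array.

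Slc38a5 (chrX:8271381-8280179) encodes SNAT5, a sodium-coupled carrier of glutamine, histidine and asparagine. It measured 4.63, 4.56 and 4.85 in DCKO, none of them detected, against 7.90, 7.58 and 6.39 in WT. The level was at least 3.63-fold lower in DCKO (log2 difference -2.61, adjusted p 0.0239), and the call held without WT array 3 and was lost without any 1 of the other 5 arrays, at adjusted p-values up to 0.0967. SNAT5 is also known from red cell precursors. Among 4 tested erythroid markers Hba-a1 was called lower in DCKO (-1.73, adjusted p 0.0234), and the 8 markers with a named probe summed to 2704 to 3146 in DCKO and 4254 to 5265 in WT, with Klf1 and Epb42 detected on no array. Their part in the Slc38a5 result was not tested.

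Other amino acid carriers of the Slc38 family did not pass. Slc38a10, chosen after its values were seen, averaged 5.64 ± 0.23 in DCKO and 6.58 ± 0.45 in WT (SD; adjusted p 0.141), with groups that did not overlap, whereas Slc38a4 and Slc38a2 overlapped. Slc38a4, the carrier SNAT4, measured 10.99, 11.06 and 10.99 in DCKO, against 10.98, 11.25 and 10.98 in WT, a difference of -0.06 with a 95% interval of -0.56 to 0.45. Slc38a2, the carrier SNAT2, which adapts to amino acid supply, measured 9.01, 8.42 and 10.37 in DCKO, against 9.18, 9.62 and 10.59 in WT (-0.53, interval -1.93 to 0.88). Both intervals leave room for changes in either direction. Slc6a15, a carrier of branched-chain amino acids and proline, had an adjusted p of 0.210 for a difference of -0.58. Its DCKO values were 10.99, 10.71 and 10.93, all below WT values of 11.38, 11.31 and 11.67. The gene's 2 dimmer probes went the other way, at 1.57 and 0.16, and also did not pass.

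Glutamate and glycine carriers were named after their values were seen. Slc1a3, the glutamate and aspartate carrier GLAST, measured 7.30, 7.14 and 6.20 in DCKO, against 4.80, 4.90 and 5.72 in WT, with a difference of 1.74 and an adjusted p of 0.0649. Slc1a2, the glial glutamate carrier GLT-1, was detected on no DCKO array and on all WT arrays, at 5.17, 5.02 and 5.35 against 7.22, 5.60 and 5.75 (-1.01, adjusted p 0.274). The pair passed the detection rule through opposite genotypes, Slc1a3 through DCKO and Slc1a2 through WT. Slc6a9, the glycine carrier GlyT1, averaged 5.77 ± 1.21 in DCKO and 7.44 ± 0.80 in WT (SD), and its arrays overlapped. Slc43a1 (LAT3), Slc43a2 (LAT4) and Slc16a10 (TAT1), carriers of large neutral or aromatic amino acids, were also named after their values were seen. Their differences of 1.15, 1.65 and 1.29 did not pass, at adjusted p-values of 0.112, 0.334 and 0.130. Slc43a1 and Slc16a10 passed the detection rule through DCKO alone, and without DCKO array 1 Slc43a2 was called higher (2.65, adjusted p 0.0303).

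**Figure D2:**
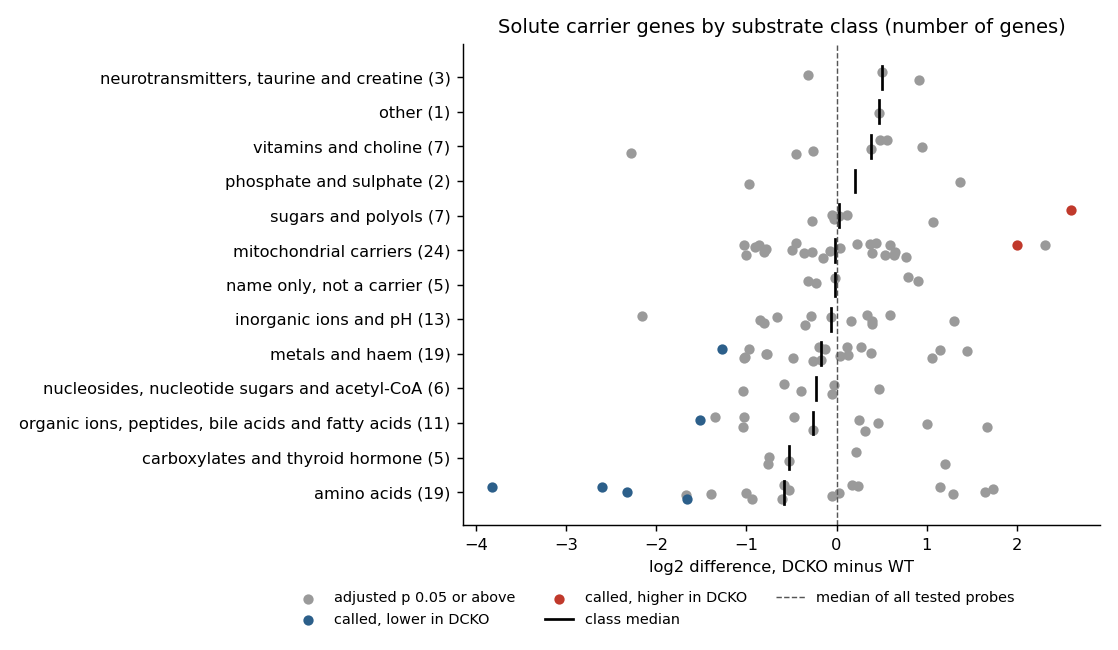
Each point is a solute carrier gene, placed by its log2 difference, DCKO minus WT, in a row for its substrate class with the number of genes in brackets, and short black lines mark class medians. The genes called lower lie mostly in the row of amino acid carriers, whose median of -0.58 is left of the dashed line at the median of all tested probes, 0.01.

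Among carriers of sugars and polyols, 7 genes were measured, 1 was called higher in DCKO and 6 did not pass, with a class median of 0.03. The called gene was Slc2a3 (chr6:122727809-122802363), which encodes GLUT3, a glucose carrier of high affinity best known from neurons. It measured 10.49, 10.03 and 10.45 in DCKO, against 7.95, 7.43 and 7.77 in WT. The groups lay more than 2 log2 units apart, with small spread on both sides (SD 0.25 in DCKO and 0.26 in WT). Slc2a3 was 6.10-fold higher in DCKO (log2 difference 2.61 ± 0.26, adjusted p 0.00511). Leaving out any 1 array kept the call, with adjusted p-values of 0.0157 to 0.0343, and so did the other 13 alternatives.

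Slc2a1 encodes GLUT1, the glucose carrier of most embryonic tissues. It measured 12.68, 12.68 and 12.78 in DCKO, against 12.75, 12.81 and 12.75 in WT. The values overlapped, and the difference of -0.05 has a 95% interval of -0.53 to 0.42. Slc2a8, the intracellular carrier GLUT8, measured 7.58, 8.03 and 7.32 in DCKO, against 6.49, 5.95 and 7.29 in WT (1.07, adjusted p 0.194). The DCKO arrays were all above the WT arrays, by a narrow margin at the nearest pair. Slc50a1, a sugar carrier of the SWEET family, averaged 7.56 ± 0.83 in DCKO and 7.83 ± 0.38 in WT (SD), with a difference of -0.27. The carrier of glucose 6-phosphate Slc37a4 and the genes Slc37a3 and Slc45a4 had differences between -0.03 and 0.11. Of 3 tested markers of neurons, Isl1 was called higher in DCKO (2.63, adjusted p 0.00960), while Neurog2 (2.62, adjusted p 0.0541) and Elavl3 (-0.63, adjusted p 0.308) did not pass. The 7 markers summed to 602 to 931 in DCKO and 322 to 401 in WT, with Tubb3, Elavl4 and Dcx detected on too few arrays to be tested and Stmn2 on none. Their part in the Slc2a3 result was not tested.

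**Figure D3:**
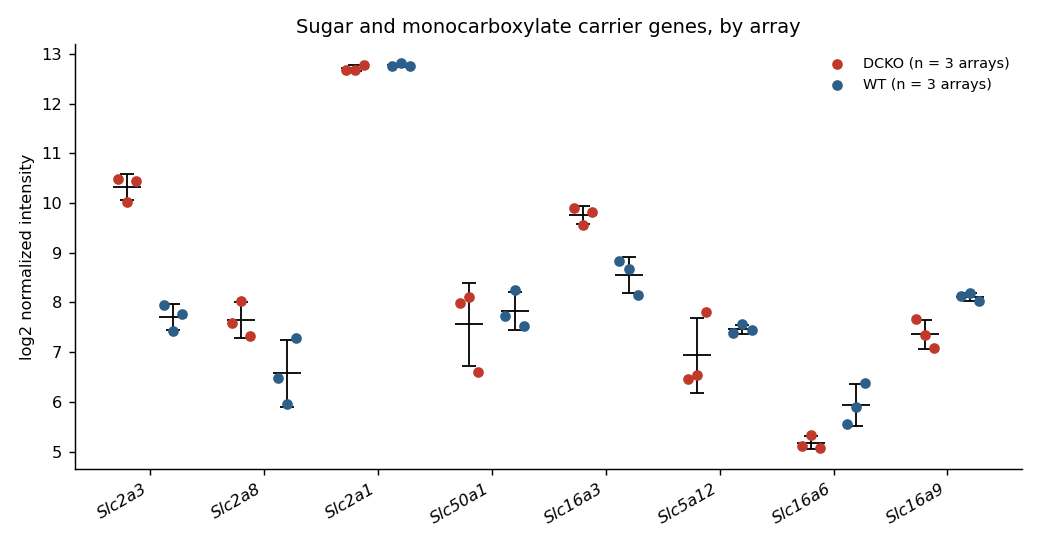
Log2 normalized intensity of 4 sugar carriers and 4 monocarboxylate carriers is plotted on each array, with DCKO left of WT for each gene, and bars and whiskers give mean and SD of 3 arrays. Slc2a3, Slc2a8 and Slc16a3 have DCKO points above all WT points, Slc2a8 by a narrow margin, and Slc16a6 and Slc16a9 have them below. The points of Slc2a1 lie between 12.68 and 12.81 in both genotypes.

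None of the 5 carriers of carboxylates and thyroid hormone passed. Slc16a3, the monocarboxylate carrier MCT4, which exports lactate from glycolytic cells, came nearest. It measured 9.90, 9.55 and 9.82 in DCKO, against 8.84, 8.67 and 8.15 in WT. The DCKO arrays were all above the WT arrays, and the difference of 1.20 had an adjusted p of 0.0596. The gene's dimmer probe gave 0.36. Slc16a3 was called under 4 of the alternative settings at the same threshold, among them no background correction. Slc16a9, which carries carnitine, averaged 7.36 ± 0.29 in DCKO and 8.11 ± 0.08 in WT (SD), with an adjusted p of 0.139. Slc16a6, the ketone body carrier MCT7, was detected on no DCKO array, at 5.12, 5.34 and 5.08, against 5.55, 5.89 and 6.38 in WT (adjusted p 0.189). Slc5a12, a sodium-coupled carrier of lactate, averaged 6.93 ± 0.76 in DCKO and 7.46 ± 0.09 in WT (SD), with overlapping arrays. Slc16a1 (MCT1) was detected on no array and Slc16a12 on 1, so neither was among the 122 genes.

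The Slc25 family, mostly carriers of the inner mitochondrial membrane, had 24 genes, of which 1 was called higher, 0 were called lower and 23 were not called. Their median was -0.02. The called gene, Slc25a17 (chr15:81318921-81360765), is the member that sits in peroxisomes, where it moves coenzyme A and related cofactors. In DCKO it averaged 10.29 ± 0.21 (SD), with 10.07 on the lowest array and 10.30 on the middle one, against 8.61, 8.04 and 8.21 in WT. All DCKO arrays lay above all WT arrays, and the gene was 4.01-fold higher in DCKO (log2 difference 2.01 ± 0.26, adjusted p 0.0116). Without WT array 2 or WT array 3 the adjusted p was 0.0550 and 0.0651.

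Adenine nucleotide carriers, which exchange ADP for ATP, did not pass. Slc25a5 averaged 10.89 ± 0.12 in DCKO and 11.16 ± 0.13 in WT (SD), and Slc25a4 averaged 10.70 ± 0.25 in DCKO and 10.85 ± 0.15 in WT. Slc25a38, which supplies glycine for haem synthesis, measured 11.27, 11.22 and 10.93 in DCKO, against 10.43, 10.30 and 10.37 in WT. Its groups did not overlap, the difference of 0.77 had an adjusted p of 0.105, and its dimmer probe gave 1.64 with an adjusted p of 0.102. Slc25a37, mitoferrin-1 of red cell precursors, averaged 5.62 ± 0.05 in DCKO and 5.58 ± 0.46 in WT (SD). It passed the detection rule through DCKO alone, with 1 WT array detected. Both means lie near the lowest detected signal, where a change would be hard to see. The erythroid markers are given with Slc38a5, and their part in these values was not tested. Slc25a40, linked to glutathione import into mitochondria, and Slc25a51, which brings in NAD, were chosen after their values were seen. They averaged 6.33 ± 0.22 and 7.53 ± 0.74 in DCKO, against 7.33 ± 0.33 and 8.56 ± 0.31 in WT (SD), with adjusted p-values of 0.0926 and 0.220. Slc25a12, the aspartate and glutamate carrier aralar, showed how wide the DCKO arrays could spread. It measured 6.18, 8.74 and 10.02 in DCKO, against 6.74, 5.38 and 5.89 in WT, so a difference of 2.31 had an adjusted p of 0.236. Without DCKO array 1 it was called higher (3.38, adjusted p 0.0477).

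Carriers of metals and haem comprised 19 genes, of which 1 was called lower, 0 were called higher and 18 were not called. Their median was -0.17. Slc11a1 (chr1:74375014-74386057) encodes NRAMP1, a metal carrier of the phagosome membrane of macrophages. It measured 6.72, 6.71 and 6.28 in DCKO, against 7.54, 8.14 and 7.85 in WT. The groups were separate, and the difference of -1.27 ± 0.26, or 2.41-fold lower in DCKO, had an adjusted p of 0.0498, which went above the threshold when any 1 array was left out (0.0848 to 0.161). Of 9 tested macrophage markers, 5 were called lower in DCKO and 4 did not pass, and none of the 9 was detected on all DCKO arrays, whereas all were detected on all WT arrays. A marker was tested only with detection on 3 arrays, which these met through WT, so this contrast in detection is a description. The 13 macrophage markers with a named probe summed to 452 to 660 in DCKO and 2909 to 3979 in WT, with Fcer1g and C1qa detected on no array. Their part in the Slc11a1 result was not tested.

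Zinc carriers went in several directions, and none passed. Slc39a7, the carrier ZIP7 that releases zinc from the endoplasmic reticulum, measured 9.26, 9.18 and 9.31 in DCKO, against 10.11, 10.04 and 9.94 in WT. These tight groups differed by -0.79, with an adjusted p of 0.0877, and the gene was called lower under 3 alternative settings at the same threshold. Slc30a4, which loads zinc into vesicles, measured 10.39, 9.96 and 10.12 in DCKO, against 8.57, 9.66 and 9.06 in WT (1.06, adjusted p 0.133), and Slc39a8, the zinc and manganese importer ZIP8, chosen after its values were seen, averaged 8.46 ± 0.30 in DCKO and 7.01 ± 0.71 in WT (SD; adjusted p 0.101). For Slc39a6, the importer ZIP6, the arrays overlapped, at 12.05 ± 0.14 in DCKO and 11.93 ± 0.10 in WT, and the difference had a 95% interval of -0.39 to 0.62. The iron exporter Slc40a1 (ferroportin) averaged 6.49 ± 1.46 in DCKO and 7.51 ± 0.60 in WT, the copper importer Slc31a1 averaged 7.5 ± 0.84 in DCKO and 8.53 ± 0.33 in WT, and the haem carrier Slc48a1 averaged 7.79 ± 1.05 in DCKO and 6.64 ± 0.68 in WT (SD). All of these overlapped.

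None of the 13 carriers of inorganic ions and pH was called, with a median of -0.06. Slc12a2, the sodium, potassium and chloride importer NKCC1 that lens cells use in volume control, measured 12.30, 12.27 and 11.98 in DCKO, against 11.83, 11.78 and 11.76 in WT. Its groups did not overlap, but the difference of 0.40 had an adjusted p of 0.357. Slc12a5, the chloride exporter KCC2 of neurons, measured 6.88, 4.67 and 6.38 in DCKO, against 8.29, 8.42 and 7.69 in WT, and its difference of -2.16 had an adjusted p of 0.0984. The neuronal markers are given with Slc2a3, and their part in this value was not tested. Slc8a1, the sodium and calcium exchanger NCX1, averaged 9.08 ± 0.27 in DCKO and 9.93 ± 0.05 in WT (SD; adjusted p 0.0996). For Slc24a5, a potassium-dependent sodium and calcium exchanger of pigment organelles, the averages were 9.43 ± 0.18 in DCKO and 9.49 ± 0.07 in WT, and for Slc4a4, the bicarbonate carrier NBCe1, 5.80 ± 0.41 in DCKO and 5.64 ± 0.10 in WT. Slc12a3, the sodium and chloride carrier NCC, and Slc4a3, the anion exchanger AE3, were picked after their values were seen. Their differences were -0.66 and 1.30 (adjusted p 0.155 and 0.124).

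Vitamin and choline carriers, 7 genes with a median of 0.38, had no calls. Slc5a6 carries biotin and pantothenate with sodium, and it too was chosen after its values were seen. It measured 4.80, 5.76 and 6.04 in DCKO, against 7.40, 8.84 and 7.19 in WT. The groups lay apart, and the difference of -2.28 had an adjusted p of 0.0685. The choline carrier Slc44a1 measured 10.29, 10.14 and 10.23 in DCKO, against 9.97, 9.71 and 9.29 in WT. Its relative Slc44a2 measured 9.82, 10.46 and 9.32 in DCKO, against 8.79, 9.16 and 8.79 in WT. For both genes the DCKO arrays lay above the WT arrays, and their differences of 0.56 and 0.95 had adjusted p-values of 0.272 and 0.177. Slc23a2, the ascorbate carrier SVCT2, averaged 6.69 ± 1.20 in DCKO and 7.14 ± 0.33 in WT, and the thiamine carrier Slc19a2 averaged 8.15 ± 1.11 in DCKO and 8.41 ± 0.25 in WT (SD). Slc44a4, the thiamine pyrophosphate carrier, was detected on no WT array, at 5.46, 5.67 and 5.54 in DCKO against 5.06, 4.99 and 5.17 in WT (adjusted p 0.249).

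The 3 carriers of neurotransmitters, taurine and creatine did not pass. Slc6a6, the carrier of the osmolyte taurine, measured 10.14, 10.42 and 10.47 in DCKO, against 10.04, 9.67 and 9.83 in WT (0.50, adjusted p 0.281). The creatine carrier Slc6a8 measured 6.96, 6.88 and 7.38 in DCKO, against 6.53, 6.19 and 5.76 in WT (0.91, adjusted p 0.137). For both, the DCKO arrays lay above the WT arrays. Slc18a2, the vesicular monoamine carrier VMAT2, averaged 7.83 ± 0.45 in DCKO and 8.14 ± 0.85 in WT (SD).

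Nucleoside, nucleotide sugar and acetyl-CoA carriers made up 6 genes, with no calls and a median of -0.22. Slc35a2, which brings UDP-galactose into the Golgi and was chosen after its values were seen, averaged 5.35 ± 0.21 in DCKO and 6.39 ± 0.58 in WT (SD; adjusted p 0.148). The arrays of Slc35a4, Slc35a3 and Slc33a1 overlapped, with differences of -0.40, -0.05 and -0.03. Slc35a3 carries UDP-N-acetylglucosamine, and Slc33a1 carries acetyl-CoA into the endoplasmic reticulum.

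Among the 11 carriers of organic ions, peptides, bile acids and fatty acids, 1 gene was called lower, 0 were called higher and 10 were not called. The class median was -0.26. Slc22a23 (chr13:34179158-34345275), a member of the organic ion family, measured 5.47, 5.11 and 5.53 in DCKO, against 6.70, 7.37 and 6.59 in WT. It was detected on 2 of the 3 DCKO arrays and passed the detection rule through WT alone. The difference of -1.51 ± 0.29 had an adjusted p of 0.0419. It is not given as a fold, since the DCKO values lie near or below the lowest signal that counts as detected. Leaving out any 1 array took the adjusted p to between 0.0801 and 0.114. Slc15a3 and Slc15a4, lysosomal carriers of histidine and peptides found in immune cells, averaged 5.64 ± 0.38 and 5.52 ± 0.52 in DCKO, against 6.68 ± 0.52 and 6.55 ± 0.61 in WT (SD), with adjusted p-values of 0.159 and 0.225. The macrophage markers given with Slc11a1 were lower in DCKO as well, and their part in these values was not tested. In the other direction, the organic ion family members Slc22a18 and Slc22a19 had differences of 1.68 and 1.00 (adjusted p 0.0848 and 0.131). These 4 genes were named after their values were seen. The arrays of the peptide carrier Slc15a2, the carnitine carrier Slc22a5 and Slc27a3, a fatty acid carrier protein with acyl-CoA synthetase activity, overlapped, with differences of -0.47, -0.26 and 0.31.

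The class of phosphate and sulphate held 2 genes, neither of which passed. Slc20a1, the phosphate carrier PiT-1, measured 5.34, 6.00 and 5.75 in DCKO, against 6.52, 7.23 and 6.27 in WT (adjusted p 0.165). Slc13a4, a sulphate carrier, measured 6.88, 5.81 and 5.70 in DCKO and was undetected on every WT array, at 4.57, 4.72 and 4.98. Its difference of 1.37 had an adjusted p of 0.0945. Slc66a2, a membrane protein of the PQ-loop family, averaged 7.46 ± 1.36 in DCKO and 6.99 ± 1.03 in WT (SD).

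A group of 5 genes carries a solute carrier name without being a carrier, and none passed. Slc9a3r1, the scaffold protein NHERF1, averaged 10.20 ± 1.09 in DCKO and 9.29 ± 0.25 in WT, and Slc7a6os averaged 8.73 ± 0.10 in DCKO and 8.96 ± 0.35 in WT (SD). Slc4a1ap, known as kanadaptin, had DCKO arrays of 9.02, 8.45 and 8.15, all above WT arrays of 7.56, 7.92 and 7.75 (0.80, adjusted p 0.186).

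At the edge of the detection rule, Slc12a1, Slc29a1, Slc29a4 and Slc41a1 came in with the weakest detection, at p-values of 0.0438 to 0.0491 on the deciding array. Slc12a1, the kidney carrier NKCC2, measured 5.39, 5.65 and 5.88 in DCKO, against 5.32, 5.34 and 5.24 in WT, and Slc29a1, the nucleoside carrier ENT1, measured 5.0, 4.98 and 5.14 in DCKO, against 5.63, 5.71 and 5.53 in WT. Slc29a4, the monoamine carrier PMAT, and Slc41a1, a magnesium carrier, averaged 6.23 ± 0.87 and 5.78 ± 0.45 in DCKO, against 5.77 ± 1.20 and 5.39 ± 0.49 in WT (SD). Just outside lay Slc7a7, Slc7a2, Slc6a4 and Slc1a6, at 0.0524 to 0.0577, with no more than 2 arrays of a genotype detected. Of these, Slc7a7, the light chain y+LAT1, measured 5.13, 6.59 and 4.86 in DCKO, against 5.51, 6.65 and 5.51 in WT. Slc7a5 had no probe of that name in the annotation used, Slc1a5 was detected on no array, Slc4a1 on 1 and Slc5a3 on 3, so none of them was described here. Across the 34 genes with further tested probes, 32 of 50 dimmer probes had the sign of the brightest one, and the only dimmer probes called were those of Slc7a11.

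**Figure D4:**
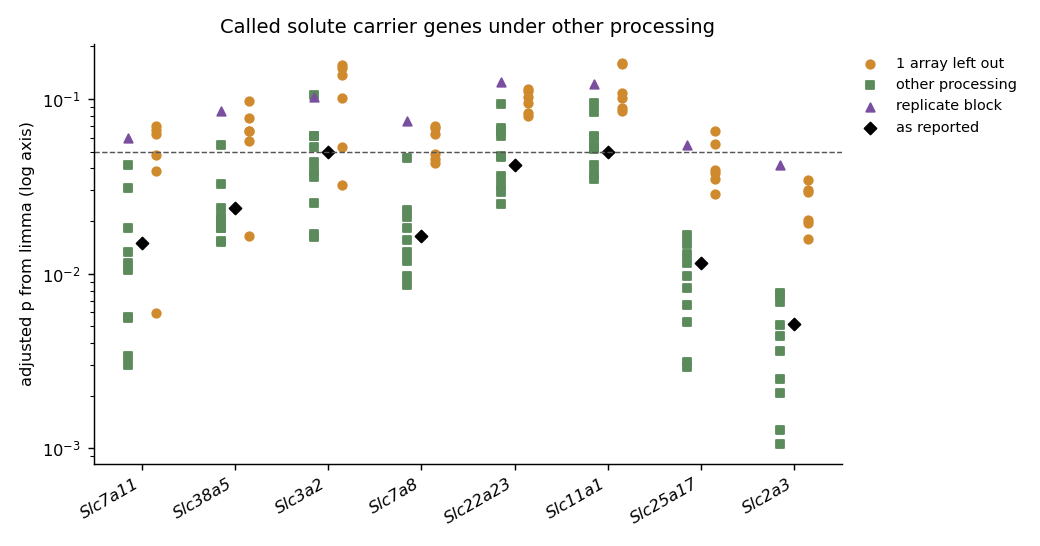
Adjusted p from limma, on a log axis, is plotted for the 8 called genes as reported (diamonds), with 1 array left out (circles), with the replicate number as a block (triangles) and under other processing (squares), and the dashed line marks 0.05. All symbols of Slc2a3 lie below the line, up to 0.0416, while every other gene has symbols above it.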

How the data were processed

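RNA of 6 samples at E10.5, 3 DCKO and 3 WT by their titles, was amplified and hybridized to Illumina MouseWG-6 bead arrays. All arrays shared a chip, which leaves no batch to test. Per probe, the authors deposited an average bead intensity, not normalized, and a detection p-value against negative controls, as GenomeStudio exports them, with a second table of normalized intensities (25.3% below 0; cubic spline in the study's methods). Bead counts and their standard errors, 12 columns, were not used. Background was modelled from the detection p-values, 16 was added, and log2 values were quantile normalized between arrays, by the function neqc (limma 3.58.1, R 4.3.3), so a fold change understates that of dim probes. Probes detected (p under 0.05) on 3 or more arrays, 19552 in all, entered lmFit and eBayes without a block, with Benjamini-Hochberg adjustment. The fitting script was tested on simulated data. The number of arrays limits the precision.

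Of 45281 probes, 34885 carry 1 symbol in the platform annotation, 18 several, and 10378 are unnamed here. All 122 solute carrier symbols were current in a RefSeq table of GRCm38.p6, which gave the gene positions. Named are all called genes, up to 3 uncalled genes per class with the highest mean, a short list of carriers known in lens, blood or neurons, and genes at the detection threshold. Others, such as Slc7a6, Slc6a9, Slc16a6, Slc31a1, Slc48a1, Slc25a12 and Slc44a4, were named after their values were seen. Genes, classes and lists were chosen with earlier results of these data known. Alternatives covered background correction, normalization, filters, moderation, thresholds, the authors' normalized values, a replicate block, averages over the probes of a gene, and each array left out in turn.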

Additional observations from a re-analysis of the deposited data

How the results depend on the processing

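Slc2a3 kept its call under every alternative run, with log2 differences of 1.91 to 2.82 and adjusted p-values up to 0.0416, and no called gene changed direction. With 1 array left out, 0 to 3 solute carrier genes were called lower and 1 to 4 higher. Without any filter on dim probes 3 were lower, and at adjusted p-values under 0.01 and 0.1 there were 0 and 11 lower and 1 and 6 higher. Higher calls were 4 without background correction, 4 with eBayes trend and robust moderation, and 4 with the mean of a gene's tested probes. The cause was not tested. Slc3a2 and Slc11a1 also lost their calls without normalization between arrays, with scaling to the 75th percentile, with the authors' processed values and without the filter, at adjusted p-values up to 0.105 for Slc3a2. Slc11a1 further lost it with normexp on all probes, without background correction and with trend and robust moderation (up to 0.0952), and in 15 of its 19 alternatives in all. Slc22a23 lost it with normexp on all probes, without background correction or filter and with trend and robust moderation (up to 0.0932), and Slc38a5 without the filter (0.0541). The sizes of called differences also moved, and over all alternatives the log2 difference ranged from -4.44 to -1.97 for Slc7a11, -3.19 to -0.98 for Slc38a5, -2.79 to -1.76 for Slc3a2, -2.31 to -0.53 for Slc7a8, -1.42 to -0.58 for Slc11a1, -2.07 to -0.48 for Slc22a23 and 1.55 to 2.24 for Slc25a17. Calls were gained at the same threshold by Slc16a3 (4 settings), Slc39a7 and Slc25a38 (3 each), and Slc8a1, Slc29a1, Slc1a3, Slc25a12 and Slc43a2 (1 each). Slc7a8 was not tested at a detection p under 0.01. Over all tested probes, 549 were called lower and 346 higher, 170 to 398 and 59 to 222 with 1 array left out, 165 and 54 at an adjusted p under 0.01, and 1024 and 736 under 0.1.

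Same-numbered samples deviated together with correlations of 0.0332, 0.0325 and 0.0105, so the numbers were not taken as pairs, although each sample correlated best with its own number. With the replicate number as a block, 0 solute carrier genes were called lower and 1 higher, Slc2a3, and 156 and 49 of all tested probes.

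The median over solute carrier genes, -0.06, was 0.034 without normalization between arrays and -0.14 with scaling to the 75th percentile, settings that moved the median of all tested probes to 0.12 and -0.05. Of 1453 alternative values of named genes, 31 changed sign, all of genes that did not pass. Without normalization between arrays the differences were 0.10 for Slc38a4, 0.18 for Slc24a5, -0.034 for Slc25a37, 0.0029 for Slc25a4, 0.024 for Slc7a6os and 0.21 for Slc35a3. At the 75th percentile they were -0.21 for Slc25a37, 0.00613 for Slc24a5, -0.13 for Slc4a4 and 0.029 for Slc35a3. The mean of probes gave 0.38 for Slc6a15 and 0.12 for Slc7a6os, and the authors' values 0.010 for Slc33a1. With 1 array left out, differences ranged from -0.10 to 0.034 for Slc38a4, -0.16 to 0.012 for Slc24a5, -0.78 to 0.040 for Slc18a2, -0.15 to 0.10 for Slc35a3, -0.39 to 0.18 for Slc33a1, -0.50 to 0.14 for Slc22a5, -0.090 to 1.23 for Slc66a2, -0.54 to 0.21 for Slc50a1, -0.64 to 0.38 for Slc19a2, -0.98 to 0.20 for Slc23a2, -0.075 to 0.31 for Slc4a4, -0.17 to 0.28 for Slc25a37 and -0.0042 to 1.15 for Slc29a4.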

Other observations

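Carriers whose names do not follow the pattern were also measured. Of 26 such genes with a tested probe, 2 were called lower in DCKO, 0 were called higher and 24 were not called, beside 2.81% of all tested probes called lower and 1.77% higher. Their median log2 difference was -0.25. Slco2b1, a carrier of organic anions that resident macrophages also express, measured 5.43, 5.22 and 5.05 in DCKO, against 7.73, 7.97 and 8.27 in WT (-2.75, adjusted p 0.00381 in limma). The groups lay far apart, but only 1 of the 3 DCKO arrays detected the Slco2b1 probe. Its DCKO values lie near or below the lowest signal that counts as detected, so no fold is given. The macrophage markers were lower in DCKO too, and their part in this value was not tested. Slc35f3, a thiamine carrier, was detected on no DCKO array, at 5.05, 5.17 and 5.24, against 7.99, 8.28 and 7.91 in WT. It was at least 6.19-fold lower in DCKO (adjusted p 0.00220).

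Of 6 tested carrier partners and sodium pump subunits, 1 was called lower and 0 were called higher, beside the same shares of all tested probes. Atp1b3, a beta subunit of the sodium pump whose gradient drives sodium-coupled carriers, measured 12.30, 11.94 and 12.06 in DCKO, against 13.39, 13.08 and 13.29 in WT, and was 2.22-fold lower in DCKO (adjusted p 0.0437). Emb and Nptn, which escort monocarboxylate carriers to the membrane, had differences of -0.64 and -0.18 and did not pass.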
